A study of Bos taurus with 16 samples.

Results

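Collectins are soluble or membrane-bound lectins that join a collagen-like stem to a carbohydrate recognition domain, and they bind sugars on microbes. Mannose-binding lectins and the newer collectins of the complement system work with MASP proteases, which cleave C4 and C2 in the lectin pathway. Surfactant proteins A and D are best known from the lung, and cattle carry relatives of surfactant protein D that humans lack, conglutinin (CGN1), collectin-43 (CL43) and collectin-46 (CL46). The family was examined in mammary gland biopsies through the probe sets to which the array annotation gives exactly 1 symbol of the family. Of 10 gene symbols looked for, 7 had such a probe set, and CL46 had 2, which made 8 probe sets of 26773 on the array. CGN1, SFTPA1 and MBL1 had none of their own: 1 further probe set lists CGN1 together with CL43, and 2 list SFTPA1 together with MBL1, so their signal cannot be assigned to a gene.

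Needle biopsies of 16 heifers of the cattle breed Parda de Montaña, taken at the end of their first lactation, gave 1 array each. Until weaning at 6 months, all suckled their dams in sessions of 30 min; 8 had starter concentrate as well (CON) and 8 had dam's milk only (NOCON). Between 6 and 15 months each feeding group was split equally between alfalfa hay diets with 67% forage and 33% concentrate or 87% forage and 13% concentrate. The labels do not tie a diet to a heifer, so CON and NOCON both mix the diets, which were not compared.

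The family was chosen by the measured difference of CL46 (12825978) between CON and NOCON on these same arrays, so the values of CL46 are a description without a test. The other members were taken as its relatives. Differences are CON minus NOCON on the log2 scale, and adjusted p-values come from limma over all 26773 probe sets with a threshold of 0.05. Array medians lay between 4.25 and 4.57. The arrays of 5 heifers, CON 2, CON 6, CON 7, NOCON 1 and NOCON 5, had a lower correlation with the rest, with a median correlation of 0.866 for CON 7 and 0.953 to 0.974 for the other 4 against at least 0.986 for the remaining arrays. They are called the low-correlation arrays below. Milk protein genes that define the secretory gland were near the top of the scale on every array, with CSN2 between 12.1 and 12.5 and LALBA between 11.9 and 12.2. The epithelial genes EPCAM and KRT18 were above the array median on 16 of 16 arrays.

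In RefSeq assembly ARS-UCD2.0, used for gene order alone, CGN1, CL46, CL43, SFTPD, MBL1 and SFTPA1 follow each other on a single chromosome in this order, with LOC112444733 as the only other protein-coding gene among them, between CL46 and CL43. MBL2, COLEC10, COLEC11 and COLEC12 lie on other chromosomes.

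The levels of the family in the lactating gland lay on both sides of the array medians. The mean of 5 of the 8 probe sets, both of CL46 and those of CL43, MBL2 and COLEC10, lay below the array medians. By definition as many probe sets lie below the median of an array as above it. A count of 5 of 8 is thus close to the share over all probe sets. CL46 (12825737) averaged 0.81 below the median, CL43 0.69 below, MBL2 0.75 below and COLEC10 0.66 below, and each of these 4 was under the median on 16 of 16 arrays. CL46 (12825978) was under it on 14 of 16 arrays, NOCON 1 and NOCON 5 being the exceptions. SFTPD lay within 0.32 below to 1.14 above the median and was under it on 12 arrays. COLEC11 averaged 0.63 above and COLEC12 2.86 above the array medians, and both were above them on every array. The plot of values by array shows these levels. Signals well below the array median can be mostly background, and no detection calls were used here.

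**Figure D1:**
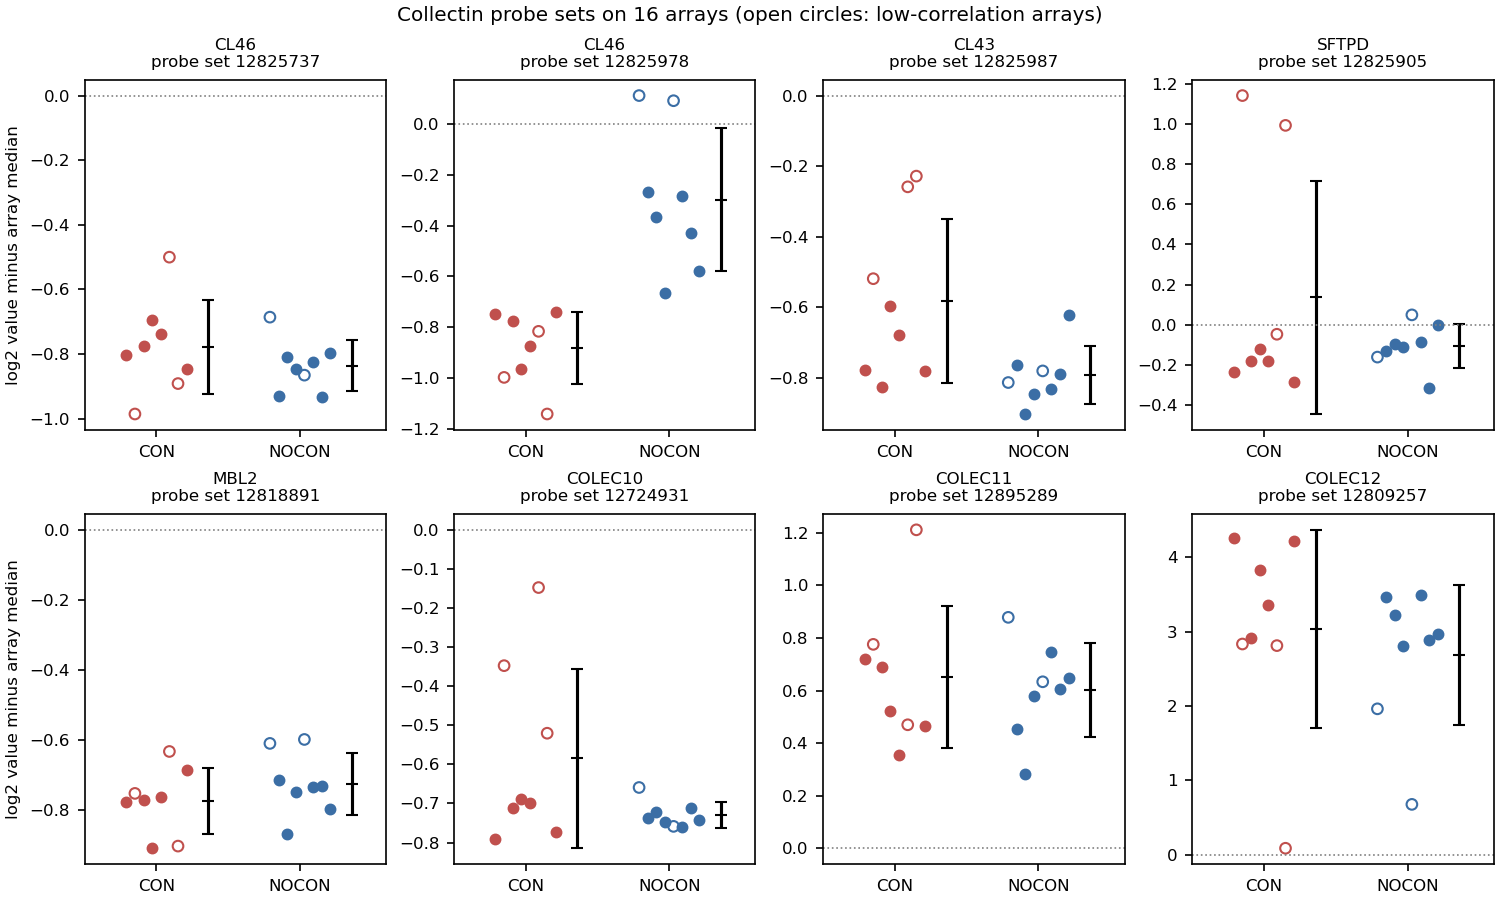
Each panel plots 1 collectin probe set as log2 value minus the median of its array, for 8 CON and 8 NOCON arrays; open circles are the 5 low-correlation arrays, and bars are mean ± SD. CL46 (12825978) is lower on every CON array than on any NOCON array, SFTPD is high on CON 2 and CON 7, and COLEC12 is low on CON 7, NOCON 5 and NOCON 1.

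CL46 encodes a collectin of the surfactant protein D branch, known from cattle and their relatives. Probe set 12825978 ran from 3.33 over a median of 3.46 to 3.55 in CON and from 3.65 over 3.96 to 4.45 in NOCON. Every CON array thus lay below every NOCON array, as did 0.120% of all probe sets on the array, and 0.176% had groups that did not overlap in either direction. The means were 3.45 ± 0.083 and 4.01 ± 0.28 (SD, n = 8 each), a difference of -0.56, or 1.47-fold lower in CON. The spread was wider in NOCON, where NOCON 1 (4.45) and NOCON 5 (4.38) were the highest, and both are low-correlation arrays. Without the 5 low-correlation arrays the means were 3.47 ± 0.085 (n = 5) and 3.87 ± 0.15 (n = 6), a difference of -0.40. With any 1 array left out the difference lay between -0.61 and -0.49.

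The second probe set of CL46 did not show this difference. Probe set 12825737 ran from 3.34 over a median of 3.54 to 3.80 in CON and from 3.35 over 3.47 to 3.66 in NOCON, and the groups overlapped. Its means were 3.55 ± 0.15 and 3.47 ± 0.099 (SD, n = 8 each), a difference of 0.08 in the opposite direction. No relation between the 2 probe sets was detected from heifer to heifer. With group means removed, Pearson's r between them was 0.21 (permutation p = 0.361) and Spearman's rho 0.05 (permutation p = 0.849) over 16 arrays, and r was -0.45 over the 11 arrays left without the low-correlation arrays. The transcript regions read by either probe set were not analysed here, and which of them reports CL46 was not tested.

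**Figure D2:**
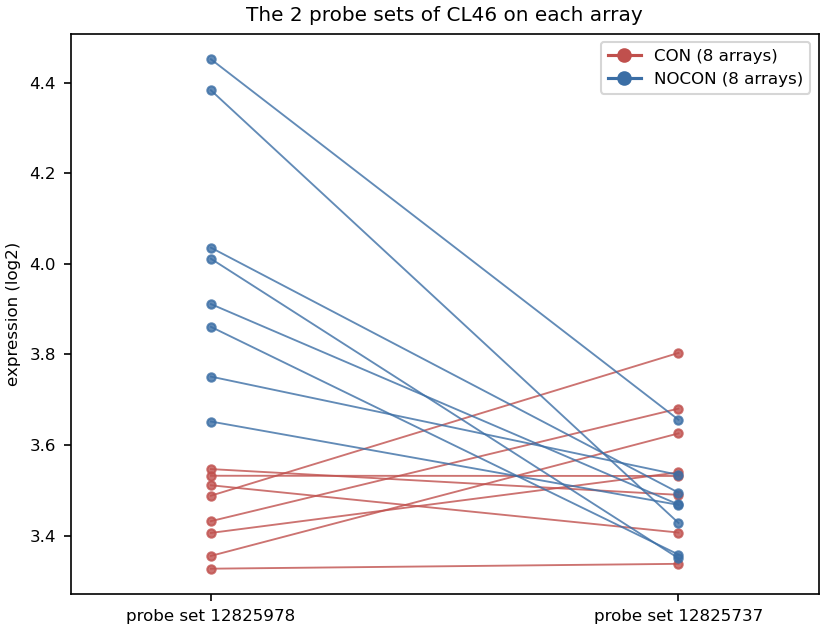
Lines join the 2 CL46 probe sets of the same array, with log2 expression on the vertical axis. On probe set 12825978 the CON arrays lie between 3.33 and 3.55 and the NOCON arrays between 3.65 and 4.45, while on probe set 12825737 the groups overlap.

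None of the 6 relatives passed the test between CON and NOCON with limma, where 0.0598% of all probe sets passed and 8.67% had an unadjusted p under 0.05. With all 16 arrays CL43 had such an unadjusted p (1 of 6 relatives) and the other 5 had none. Without the low-correlation arrays the limma unadjusted p was 0.470 for CL43 and 0.0346 for COLEC12, and neither passed after adjustment. Over all arrays MBL2 had a lower mean in CON and the other 5 a higher one. Without the low-correlation arrays SFTPD (-0.090), COLEC11 (-0.014) and COLEC10 (-0.0082) turned below 0. MBL2 (-0.028), CL43 (0.048) and COLEC12 (0.56) kept their sign.

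CL43, a serum collectin and the nearest neighbour of CL46 with a probe set of its own, ran from 3.47 over a median of 3.66 to 4.34 in CON and from 3.37 over 3.51 to 3.71 in NOCON. The groups overlapped, and the upper end of CON was made of CON 7 (4.34) and CON 6 (4.04). The difference was 0.24 (95% interval 0.0011 to 0.47, limma adjusted p = 0.574), and the exact permutation p was 0.0435 (two-sided, 0.461 after adjustment over all probe sets). It was 0.15 without CON 7 and 0.048 without the low-correlation arrays. The probe set that lists both CGN1 and CL43 (12825848) ran from 3.56 over a median of 3.71 to 4.09 in CON and from 3.43 over 3.61 to 3.77 in NOCON. It differed by 0.19 (95% interval 0.018 to 0.36, limma adjusted p = 0.553) and was highest on CON 7 (4.09) and CON 2 (4.07). Its limma unadjusted p was 0.0322, and its exact permutation p was 0.0326 (two-sided, 0.431 after adjustment over all probe sets). Without the low-correlation arrays its means were 3.69 ± 0.096 (n = 5) and 3.62 ± 0.11 (n = 6), for which no p-value is given here.

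SFTPD, surfactant protein D, a lung collectin that is also made by other epithelia, stood at 2 levels. It ran from 3.97 over a median of 4.16 to 5.57 in CON and from 3.97 over 4.19 to 4.34 in NOCON. CON 7 (5.57) and CON 2 (5.47) stood apart, and the other 14 arrays lay between 3.97 and 4.34. The difference was 0.27 (95% interval -0.20 to 0.73, limma adjusted p = 0.689), and it was -0.083 without CON 2 and CON 7, a comparison chosen after the values were seen. CON 7 held the highest of the 16 values for 3 of the 8 collectin probe sets (CL43, SFTPD and COLEC11) and the lowest for 1 (COLEC12), against 33.4% and 21.1% of all probe sets, and CON 2 or CON 7 held the highest for 39% of all. Among markers of alveolar type II cells, the lung cells that make surfactant, SFTPC was at 5.79 on CON 7 and 4.48 on CON 2 against 3.86 to 4.32 on the others, SFTPB at 5.06 and 4.26 against 4.09 to 4.55, and NKX2-1 at 4.58 and 3.84 against 3.43 to 3.78. These are 3 of the 7 markers read, picked from the list, and the rest are not given by array. Between CON and NOCON the rest differed by -0.050 (ABCA3), 0.042 (LAMP3), -0.025 (NAPSA) and 0.012 (SLC34A2). On CON 7 SFTPC lay 1.22, SFTPB 0.49 and NKX2-1 0.0039 above the array median. SLC34A2, also among the 7, was near the top of the scale in both groups, with means of 11.16 in CON and 11.15 in NOCON. The mean of all 7 such markers deviated by 0.48 on CON 7 and by 0.015 on CON 2. It ranged from -0.089 to 0.48 in CON and from -0.11 to 0.12 in NOCON. This mean includes the 3 markers shown, so it does not say that the rest were raised on CON 7. The part of the 7 markers in the SFTPD values was not tested.

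The mannose-binding lectin MBL2, a liver product that starts the lectin pathway, ran from 3.41 over a median of 3.55 to 3.67 in CON and from 3.41 over 3.57 to 3.73 in NOCON, with a difference of -0.02 (95% interval -0.14 to 0.088, limma adjusted p = 0.887). The groups overlapped almost entirely, and the highest array was NOCON 1 (3.73). The probe sets that list both SFTPA1 and MBL1 differed by 0.04 (12827860) and 0.03 (12827866), with limma adjusted p of 0.904 and 0.889. Both were highest on CON 7, at 4.58 and 3.91, against NOCON ranges of 3.73 to 3.97 and 3.36 to 3.70.

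The last 3 relatives, like MBL2, lie on other chromosomes than CL46. COLEC10, collectin liver 1, which forms complexes with COLEC11, ran from 3.48 over a median of 3.61 to 4.16 in CON and from 3.54 over 3.57 to 3.68 in NOCON. CON 6 (4.16), CON 7 (4.05) and CON 2 (3.98), all low-correlation arrays, lay above all NOCON arrays, and the other 5 CON arrays lay between 3.48 and 3.63. The difference was 0.17 (95% interval -0.031 to 0.37, limma adjusted p = 0.602), 0.11 without CON 6, and -0.0082 without the low-correlation arrays. COLEC11, collectin kidney 1, ran from 4.63 over 4.92 to 5.78 in CON and from 4.56 over 4.91 to 5.22 in NOCON. Its groups overlapped almost entirely, with CON 7 (5.78) alone above the NOCON range. The difference was 0.07 (95% interval -0.22 to 0.37, limma adjusted p = 0.866) and -0.041 without CON 7.

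COLEC12, collectin placenta 1, a membrane-bound scavenger receptor known from vascular endothelium, was the member furthest above the array medians and varied the most between heifers. It ran from 4.66 over a median of 7.43 to 8.55 in CON and from 4.97 over 7.24 to 7.81 in NOCON. The 3 lowest arrays, CON 7 (4.66), NOCON 5 (4.97) and NOCON 1 (6.30), are all low-correlation arrays and come from both groups, while CON 1 (8.55), CON 8 (8.46) and CON 4 (8.15) lay above every NOCON array. The means were 7.37 ± 1.24 and 6.99 ± 0.94 (SD, n = 8 each), and they differed by 0.38 (95% interval -0.71 to 1.47) with an adjusted p of 0.806 from limma. A single array moved it widely, to 0.77 without CON 7 and to 0.09 without NOCON 5. Without the low-correlation arrays the means were 8.00 ± 0.57 (n = 5) and 7.44 ± 0.29 (n = 6), a difference of 0.56. Its limma unadjusted p was 0.0346 and its limma adjusted p 0.532, with 0.0859% of probe sets past the threshold in that fit.

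The 3 arrays with the lowest COLEC12 were also the 3 with the lowest mean of the 6 endothelial markers (PECAM1, CDH5, VWF, KDR, TEK and CLDN5). That mean deviated by -1.37 on CON 7, -0.85 on NOCON 1 and -0.45 on NOCON 5. CON 2 followed at -0.41 with COLEC12 at 7.16, and the arrays outside the low-correlation ones lay between 0.15 and 0.56 in CON and between -0.095 and 0.52 in NOCON. The 4 measured myoepithelial markers were lowest on the same 3 arrays, at -0.59, -0.51 and -0.35. The luminal epithelial markers deviated by -0.24, 0.06 and 0.22 there, and the fibroblast markers by -0.12, -0.19 and 0.011. In bulk tissue, fewer cells of a type and less RNA per cell cannot be told apart, and the part of endothelial markers in the COLEC12 values was not tested.

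**Figure D3:**
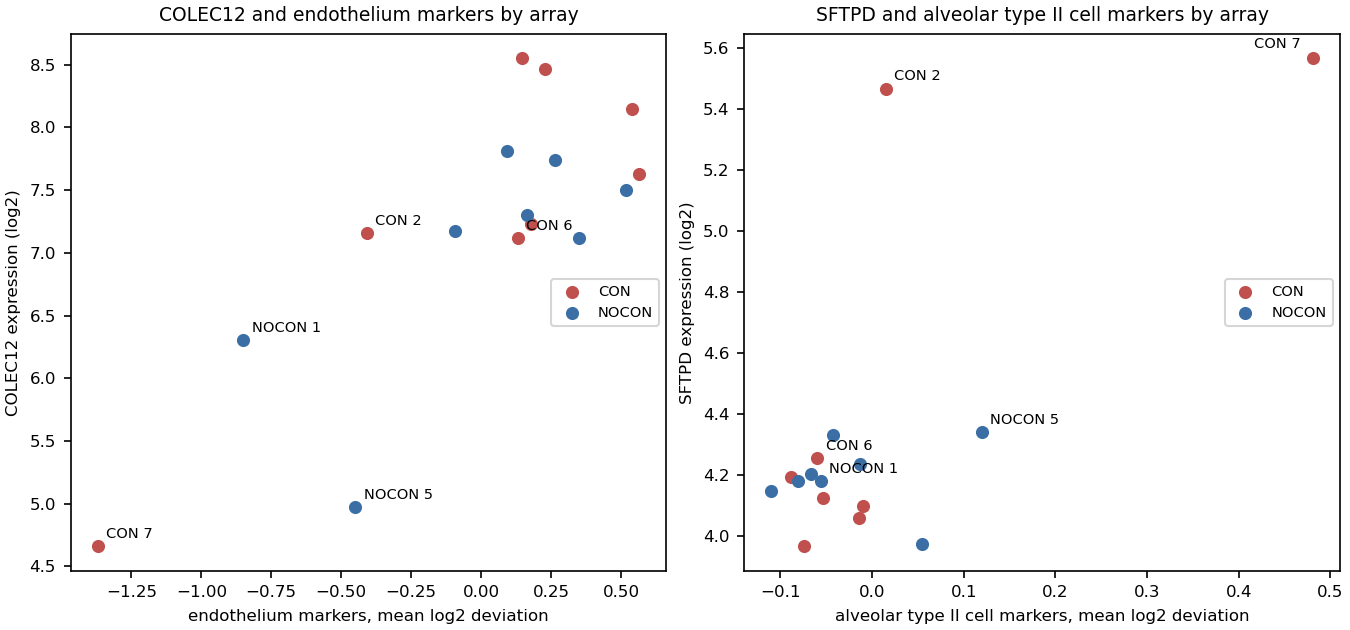
Each point is 1 array; the left panel sets log2 expression of COLEC12 against the mean log2 deviation of 6 endothelial markers, the right panel SFTPD against that of 7 alveolar type II cell markers. CON 7, NOCON 5 and NOCON 1 are lowest for COLEC12 and for the endothelial markers, and CON 2 is high for SFTPD with the lung markers at 0.015.

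**Figure D4:**
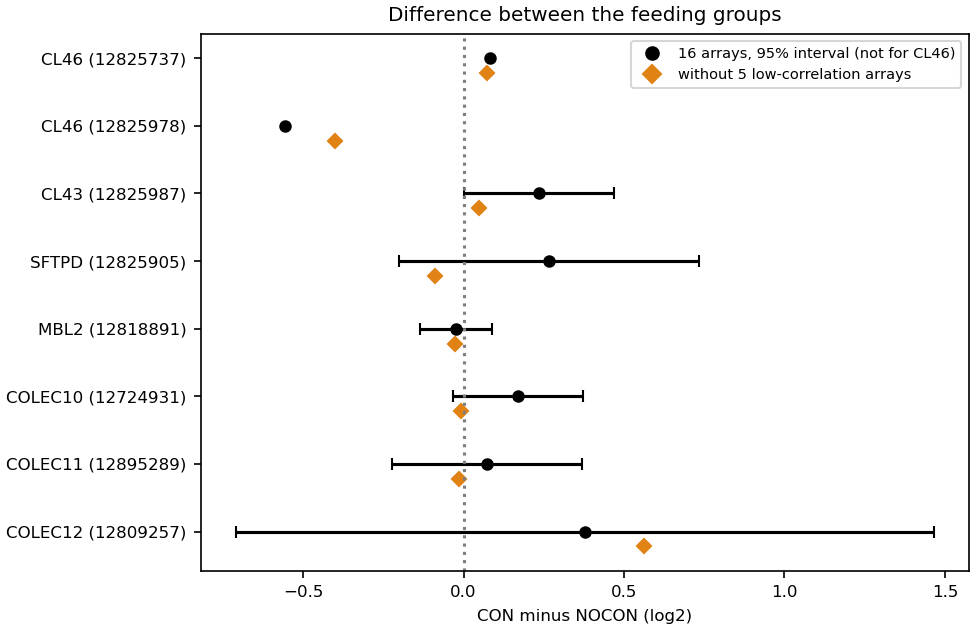
Black points are the differences CON minus NOCON (log2) over 16 arrays, with 95% intervals from limma for the relatives and none for CL46, and diamonds the differences without the 5 low-correlation arrays. SFTPD, COLEC10 and COLEC11 change sign between the points and the diamonds.

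To see whether the relatives follow CL46 from heifer to heifer, the group means were removed and the deviations set against those of CL46 (12825978) over the 16 arrays. Across all 26772 other probe sets, limma called no relation to CL46 (0% called; 9.85% had an unadjusted p under 0.05), and so none of the 7 other collectin probe sets. In all, 10 relations with collectin probe sets were computed, those with 2 symbols included. All share the same arrays, and array-wide shifts act on both sides.

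For MBL2, Pearson's r was 0.58 (permutation p = 0.025) and Spearman's rho 0.48 (permutation p = 0.0727), with a limma adjusted p of 0.504. Without NOCON 1 and NOCON 5, the arrays farthest from the CL46 median, r was 0.11 over 14 arrays. It was 0.43 without NOCON 1 alone and 0.50 without NOCON 5 alone. Leaving out the most extreme values of CL46 narrows its range and would lower r for a true relation too. This fit thus cannot decide whether the relation rests on the 2 arrays. Within the groups r was 0.22 in CON and 0.75 in NOCON. It was 0.23 without the low-correlation arrays and 0.34 with the other CL46 probe set (12825737) in place of 12825978. It rose to 0.69 with median centring and to 0.67 with quantile normalization, and passed after adjustment in neither. With 1 array left out it ran from 0.43 to 0.65.

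For CL43, r was -0.11 (permutation p = 0.470) and rho -0.17 (permutation p = 0.465). For COLEC10 they were -0.034 (permutation p = 0.786) and -0.30 (permutation p = 0.165). Both depended on the CL46 probe set and on the arrays: against 12825737, r was 0.53 for CL43 (limma adjusted p = 0.262) and 0.49 for COLEC10 (limma adjusted p = 0.282), and against 12825978 without the low-correlation arrays it was -0.47 and -0.45. For COLEC11, r was 0.18 (permutation p = 0.396) and rho 0.18 (permutation p = 0.515). The sign of r differed between CON and NOCON for COLEC10 (-0.34 and 0.36) and COLEC11 (-0.095 and 0.43), and for CL43 it was negative in both (-0.33 and -0.076). For COLEC12, r was -0.34 (permutation p = 0.157) and rho -0.085 (permutation p = 0.746), and r turned to 0.26 without NOCON 1 and NOCON 5 and to 0.44 without the low-correlation arrays. Within the groups COLEC12 gave 0.21 in CON and -0.66 in NOCON. Since SFTPD fell into separate levels, its r over all arrays, -0.12 (permutation p = 0.353), says little. Within the groups SFTPD gave -0.55 in CON and 0.20 in NOCON. Over the 14 arrays without CON 2 and CON 7, left out after the values were seen, its r was 0.10. The limma adjusted p of these 5 relations with 12825978 over all arrays ran from 0.706 to 0.992 over all probe sets.

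The probe set that lists CGN1 and CL43 ran against CL46 (12825978), with r = -0.45 (permutation p = 0.0212) and rho = -0.55 (permutation p = 0.0232), and its limma adjusted p was 0.600. It was negative in CON (-0.44) and in NOCON (-0.70) and remained so without NOCON 1 and NOCON 5 (-0.49) and without the low-correlation arrays (-0.48). The relation did not pass the adjustment over all probe sets. Its relation to the other CL46 probe set (12825737), with which r of CL43 changed sign, is not given here. The probe sets that list SFTPA1 and MBL1 had r of 0.0057 (12827860, permutation p = 0.969) and 0.17 (12827866, permutation p = 0.419), with rho of -0.012 (permutation p = 0.967) and -0.018 (permutation p = 0.949).

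**Figure D5:**
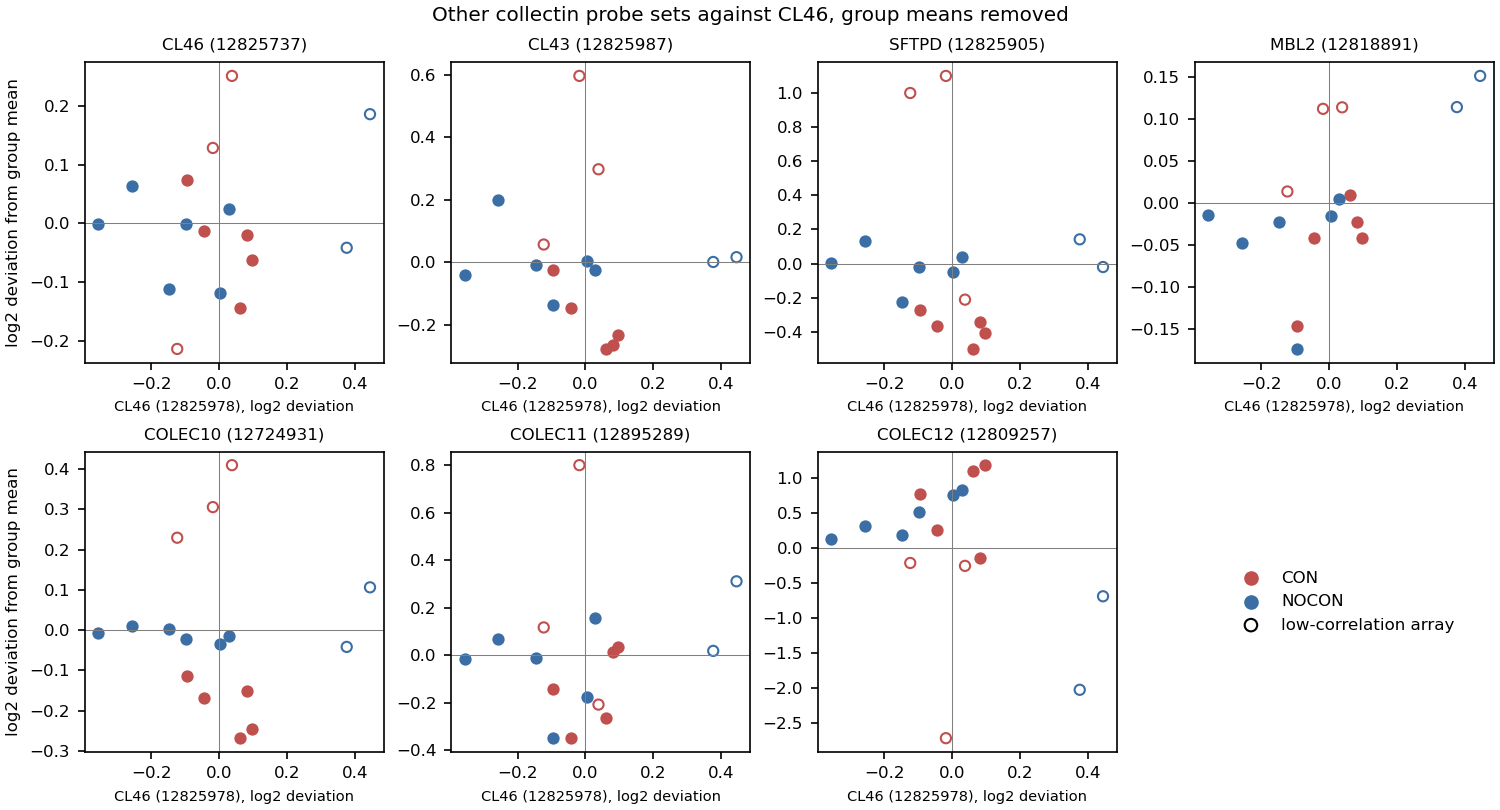
Each panel sets the log2 deviation from the group mean of 1 collectin probe set (vertical) against that of CL46 (12825978, horizontal) on 16 arrays; open circles are the low-correlation arrays. In the panel of MBL2 the 2 open NOCON circles at the right are NOCON 1 and NOCON 5, without which r was 0.11.

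The named genes whose pattern was most like that of CL46 (12825978), by Pearson's r over the 16 arrays with group means removed, were CLIC3 (0.86), LOC782892 (0.86), DCTN6 (0.85), AAMDC (0.84), MIR205 (0.84) and HMGN5 (0.83). None passed, with limma adjusted p from 0.179 to 0.224. Over the 11 arrays outside the low-correlation ones, r was 0.63 for CLIC3, 0.70 for LOC782892, 0.76 for DCTN6, 0.48 for AAMDC, 0.41 for MIR205 and 0.69 for HMGN5. The genes were picked for the highest r on the 16 arrays, which include these 11. High values thus follow from the choice, and the 11 arrays are no independent check.

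No gene of the pathways in which collectins act passed between CON and NOCON with limma (0.0598% of probe sets did). The median difference over all 18435 named genes was -0.0037. In the lectin pathway, 3 of 7 measured genes had higher and 4 lower means in CON (median -0.03, and -0.11 without the low-correlation arrays). The complement component C4A, which the pathway cleaves, had a mean of 6.13 ± 0.38 with concentrate (CON) and 5.78 ± 0.44 with milk only (SD, n = 8 per group), a difference of 0.35 (limma adjusted p = 0.598), MASP1, a protease bound by collectins, differed by -0.26 and C2 by 0.12. In the C1 complex, which starts the classical pathway with a recognition subunit that has a collagen-like stem as collectins do, 2 of 5 genes were higher and 3 lower (median -0.04), with C1QC at -0.21, C1QB at 0.29 and C1R at -0.10.

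In the alternative and terminal part of complement, 7 of 9 genes had higher and 2 lower means in CON (median 0.08, and -0.0011 without CON 7, on which their mean was highest of all arrays). CFD, the protease factor D, known as adipsin from fat cells, had the smallest unadjusted p of the complement genes listed: its means were 7.71 ± 0.31 and 8.22 ± 0.37 (SD, n = 8 in CON and in NOCON), a difference of -0.51 (limma adjusted p = 0.430), which came to -0.34 without the low-correlation arrays. CFP (properdin) differed by -0.18 and C9 by 0.10. Of the complement regulators, 6 of 12 were higher and 6 lower (median -0.0044, and 0.00022 without CON 7), with CD59, a membrane inhibitor of the terminal complex, at -0.54 and at -0.18 without CON 7, SERPING1, the C1 inhibitor, at 0.20 and CD55 at -0.046.

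Of the proteins described as receptors or partners of collectins, 6 of 9 had higher and 3 lower means in CON (median 0.03, and 0.086 without CON 7). Calreticulin (CALR) differed by -0.18, SIRPA by 0.10 and CD14 by -0.09, with limma adjusted p from 0.734 to 0.856. CALR differed by -0.058 and CD14 by 0.034 without CON 7. Of other pattern recognition lectins and scavenger receptors, 8 of 11 were higher and 3 lower (median 0.06). SCARA3, a scavenger receptor with a collagen-like stem as in COLEC12, averaged 4.67 ± 0.41 with concentrate and 4.36 ± 0.13 without (SD, n = 8 per group), a difference of 0.32 (limma adjusted p = 0.570), and CLEC6A differed by 0.11.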

How the data were processed

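The values are those the authors deposited, 1 log2 expression value per probe set and array, made, per the submitters' processing notes, with the Affymetrix software GCOS and with RMA (versions not stated). RMA corrects background, normalizes between arrays and summarises probes, and its values understate differences of dim probe sets. The log base is taken from the range of the values. The chip definition and scan batches could not be tested here. Precision is limited by having 8 arrays a group. Nothing says that a heifer gave more than 1 sample, so p-values rest on the spread between heifers.

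Titles gave the groups. CON and NOCON were compared with limma 3.58.1 (lmFit, eBayes) in R 4.3.3 with Benjamini-Hochberg adjustment at 0.05. Simulated data with independent noise of equal spread on every array served only to check the code. They held no low-correlation arrays. CL46 got no test. Relations to CL46 were fitted in limma with group as a term, with 100000 permutations within groups (two-sided). Exact permutation tests used all 12870 regroupings. Where a gene has several probe sets, its brightest stands for it in the lists. An array was called low-correlation where its median correlation with the others fell over 5 scaled MADs short of the typical array. Of the probe sets, 18790 have 1 symbol, 385 several and 7598 none in the platform annotation.

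The members, lists and tests were chosen with earlier results of these data known. The 6 pathway and 8 cell type lists name the 3 genes with the smallest p (2 for other lectins and for cell types), and the 6 genes most like CL46 are named. Named outside this rule were LALBA and EPCAM for the tissue, TTR, and the endothelial and alveolar type II cell markers beside COLEC12 and SFTPD. Alternatives were a filter keeping the brightest 60% of probe sets, trended and robust eBayes, weights for arrays, median centring, quantile normalization, a replicate block, and leaving out arrays. Replicate numbers did not pair the arrays.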

Additional observations from a re-analysis of the deposited data

Results flagged for a closer look

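Dixon's test at the 95% level was run on 22 groups of 8 arrays, 2 for each of the 11 probe sets, and marked 6 values, where chance marks about 1 in 20 groups. On CON 7 it marked 4: COLEC12 at 4.66, with the next lowest CON array at 7.12, COLEC11 at 5.78, with the next highest at 5.10, and the probe sets that list SFTPA1 and MBL1, at 4.58 (12827860, next 3.98) and 3.91 (12827866, next 3.63). The other 2 were CL43 at 3.71 on NOCON 8 (next 3.53) and COLEC10 at 3.68 on NOCON 1 (next 3.59). CON 7 held the highest value of the 16 arrays for 33.4% and the lowest for 21.1% of all probe sets. SFTPD on CON 2 and CON 7 was not marked, because the test looks for a lone value.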

How the results depend on the processing

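No relative of CL46 passed under any alternative. The exact permutation test called 0% of all 26773 probe sets, with a smallest possible unadjusted p of 0.0001554. Its outcome thus says nothing particular about the relatives. CL46 was not tested. The filter left out CL43, MBL2, COLEC10 and both probe sets of CL46, so no value was given for them there. The count of all probe sets past the threshold was 16; it was 67 with array weights, 4 with the replicate block, and 16 to 20 with 1 array left out. The replicate block called none of the relatives. The numbers did not pair the arrays: same-numbered arrays of the 2 groups correlated from -0.43 to 0.29, 2 of 8 over 0.1, and 1 of 8 CON arrays correlated best with its own number. SFTPD turned to -0.016 with array weights, -0.090 without the low-correlation arrays and -0.083 without CON 2 and CON 7. COLEC11 turned to -0.037, -0.014 and -0.080 in the same order and ran from -0.041 to 0.12 with 1 array left out, and COLEC10 turned to -0.0082 without the low-correlation arrays. COLEC12 kept its sign. It was 0.68 with array weights (limma unadjusted p = 0.0496, limma adjusted p = 0.409) and 0.87 without CON 2 and CON 7 (limma unadjusted p = 0.0526, limma adjusted p = 0.644). CL43 came to 0.080 with array weights (limma unadjusted p = 0.245).

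Of the relations to CL46, 0 to 2 probe sets passed with 1 array left out, the 2 without CON 7. With the other CL46 probe set r became 0.53 for CL43 and 0.49 for COLEC10, and with the replicate block 0.083 and 0.080. COLEC11 turned to -0.050 with median centring, -0.0021 with quantile normalization, -0.092 without the 2 arrays farthest from the CL46 median and -0.0074 with group means kept. The other CL46 probe set turned to -0.45 without the low-correlation arrays, -0.049 without the 2 farthest arrays and -0.15 with group means kept, and COLEC12 to 0.44 and 0.26 in the first 2 of these. With 1 array left out, r ran from -0.060 to 0.31 for the other CL46 probe set, -0.17 to 0.024 for COLEC10 and -0.0092 to 0.32 for COLEC11. The cause of these turns was not tested. Lists had no gene past the threshold without the low-correlation arrays, without CON 7 or with gene means. Leaving out CON 2 and CON 7 together, and CON 7 for the lists, was chosen after seeing the data. The dim level of the members below the array medians limits what can be seen.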

Other observations

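Markers of 8 cell types were read on the same arrays, and none of their genes passed between CON and NOCON with limma. Of the luminal epithelial markers, 3 of 11 had higher and 8 lower means in CON (median -0.06), with the keratin KRT18 at -0.30 (limma adjusted p = 0.519) and the casein CSN2 at 0.10. Of hepatocyte markers, the textbook source of serum collectins, 6 of 8 were higher and 2 lower (median 0.06, and -0.010 without CON 7). The defining gene ALB lay between 3.21 and 3.54, below the median on every array, and differed by 0.08, and FGB by 0.09, whereas TTR lay between 6.54 and 9.88. Of alveolar type II cell markers, 4 of 7 were higher (median 0.01, and -0.0056 without CON 7), with SFTPC at 0.26 and NKX2-1 at 0.13. Without CON 7 these were 0.050 and 0.012, and without the low-correlation arrays -0.042 and -0.066.

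Of macrophage markers, 4 of 5 were higher in CON (median 0.02), with CD163 at 0.19 and AIF1 at -0.33, which came to 0.061 and 0.039 without the low-correlation arrays. Of endothelial markers 4 of 6 were higher (median 0.03, and 0.24 without CON 7), with CLDN5 at -0.13 and TEK at 0.20, or 0.36 without CON 7. Of fibroblast markers 4 of 6 were higher (median 0.04, and 0.07 without CON 7), with DCN at -0.12, or -0.060 without CON 7, and COL1A2 at 0.12. Of adipocyte markers 3 of 5 were higher (median 0.11, and 0.036 without CON 7), with LEP at 0.15, or 0.097 without CON 7, and ADIPOQ at 0.19. Of myoepithelial markers 3 of 4 were higher (median 0.11, and 0.20 without CON 7), with KRT5 at 0.15, or 0.28 without CON 7, and OXTR at -0.07, or 0.0088 without the low-correlation arrays.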
